A study of Mus musculus with 3 samples.

Results

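Genes of motile and primary cilia were followed in astrocytes made from mouse embryonic stem cells. The members were all genes whose array symbol belongs to the axonemal dynein heavy chain (Dnah), dynein intermediate chain (Dnaic), radial spoke (Rsph), tektin (Tekt), Spag6, Spag16, Spag17, Ift or Bbs families, with Foxj1, Rfx2, Rfx3, Kif3a, Ccdc153, Tmem212, Ak7 and Dynlrb2 added by name. This gave 57 of the 18194 genes named on the array. They comprised 31 motility genes, 22 Ift and Bbs genes, 3 transcription factor genes and Kif3a. Arl13b was also on the list of names, but no probe set was annotated to it alone, and it was not analysed here.

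A cilium is a microtubule axoneme that grows from a basal body. Motile cilia, such as those of ependymal cells that line the brain ventricles, carry dynein arms that slide the outer microtubules against each other, and radial spokes and a central apparatus that control the beat. Primary cilia, which astrocytes and neural precursors also carry, lack these parts and act as sensors, for example in Hedgehog signalling. Intraflagellar transport (IFT) particles build both kinds of cilium, and the BBSome, made of Bardet-Biedl syndrome (Bbs) proteins, carries membrane proteins in and out of it. FOXJ1 and RFX factors are transcription factors of ciliary genes, FOXJ1 mainly of the motile kind.

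The samples were 3 wild-type cultures in 1 group, so no treatment or genotype was compared. Precursors derived through embryoid bodies (4 days) and a selection step of 5 to 7 days were grown with FGF2 and an EGF. At 18 passages after the embryoid bodies these growth factors were taken away, and 5% fetal bovine serum was present for the last 5 days. RNA was measured on Affymetrix Mouse Genome 430 2.0 arrays, which have 1 colour. The labels do not state whether the 3 came from separate differentiations. The p-values therefore describe the scatter among these 3 arrays, which could be purely technical, and so few arrays limit the precision.

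The comparison that 1 group allows is each gene against background. Levels are log2 signal intensities of the brightest probe set of a gene, as mean ± SD (n = 3). The background limit of an array was the 95th percentile of 78 chemosensory receptor genes, whose main known sites are sensory epithelia, and it was 3.99, 4.10 and 4.07 on replicates 1, 2 and 3 (mean 4.05). A gene was called above background at a Benjamini-Hochberg adjusted p below 0.05 in a one-sided, one-sample limma test fitted over 18116 genes. Of these, 10570 genes (58.3%) were called. Probe sets differ in brightness, so levels of different genes are not ranked as amounts of RNA. Of 8 astrocyte markers, 8 were above background, at mean levels from 5.45 to 12.63. Of 5 neuron markers 2 were, Syt1 at 7.24 ± 0.12 and Tubb3 at 5.83 ± 0.65, while Snap25, Stmn2 and Nefl were not. Of the 4 Syt1 probe sets, 1 was above background when tested alone. Of the pluripotency markers 0 of 4 were (Pou5f1, Nanog, Zfp42 and Dppa3; 0 also at an unadjusted limma p below 0.05).

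Ift and Bbs genes were above background without exception on these arrays, while most motility genes were not. All 22 Ift and Bbs genes passed, against 6 of 31 motility genes (19.4%) and 58.3% of all genes tested. The median level was 8.33 for Ift and Bbs genes, 3.34 for motility genes and 5.81 for all genes tested. Over all 57 members 32 passed (56.1%), a share near that of all genes, so the members as a whole did not stand apart and the difference lay between the gene classes. The contrast was present on every array. On replicates 1, 2 and 3, 12, 9 and 13 of the 31 motility genes exceeded the limit, against 22 of 22 Ift and Bbs genes on each. The median motility level was 3.43, 3.36 and 3.95 on the 3 arrays, below the limit of each array, and the median Ift and Bbs level was 7.98, 8.19 and 8.56. No test of this difference was made, since members are not replicates. In RNA of whole cultures, few ciliated cells and little RNA per cell cannot be told apart.

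**Figure D1:**
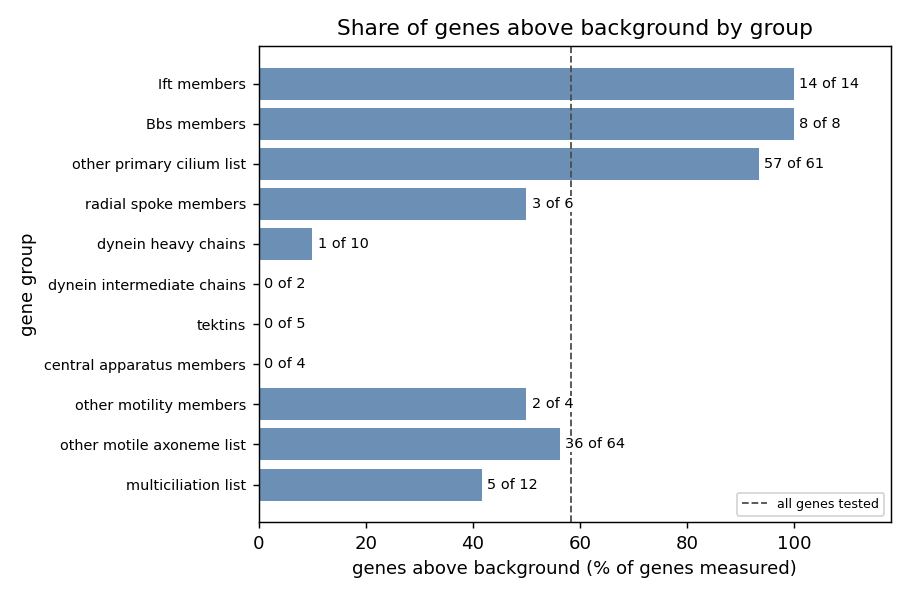
Share of the measured genes of each group that were above background, in percent, with the counts beside the bars and a dashed line at 58.3%, the share of all genes tested. Ift, Bbs and other primary cilium genes reach past the line. The other groups end left of it, from 0 of 5 tektins to 36 of 64 genes of the other motile axoneme list.

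The 3 transcription factor genes all passed (against 58.3% of all genes tested). Foxj1, the factor that switches on the motile cilium programme, had log2 signals of 9.49, 9.46 and 10.33 on replicates 1, 2 and 3. Its mean was 9.76 ± 0.49, which is 5.71 ± 0.24 (SE) above the limit (adjusted p = 8.18e-05, limma), and replicate 3 was the highest. Rfx3, an RFX factor of both cilium types, had 8.61, 9.27 and 9.14, a mean 4.95 above the limit (adjusted p = 5.68e-05, limma), and passed on both of its probe sets. Rfx2, a related factor of multiciliated cells and sperm, had 6.26, 6.44 and 6.62, a mean 2.39 above the limit (adjusted p = 0.000171, limma). Rfx2 passed on 1 of its 4 probe sets, and with the median of the 4 it lay 0.09 above the limit and did not pass (adjusted p = 0.53, limma).

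Among the dynein heavy chains, the motors of the arms, 1 of 10 genes passed (10%, against 58.3% of all genes tested). This was Dnah1, a heavy chain of the inner arms, with 5.24, 5.23 and 5.87 on replicates 1, 2 and 3 (mean 1.39 above the limit, adjusted p = 0.00287, limma). It rested on 1 of 2 probe sets. The other was at 2.16 ± 0.92, and with the median of both Dnah1 lay at -0.22 from the limit. Of the outer arm heavy chains of cilia, Dnah5 had 4.68, 4.53 and 4.17 and Dnah9 had 4.12, 4.96 and 4.70. Each exceeded the limit on all 3 arrays by a small margin, a mean of 0.40 and 0.54, and neither passed (adjusted p = 0.0775 and 0.052, limma). Dnah9 had a second probe set at 2.47 ± 1.39, and with the median of both it lay at -0.50 from the limit. For comparison, 59.8% of all genes tested were above the limit on all 3 arrays. Dnah11, the remaining outer arm chain of cilia, was at 1.64 ± 0.40, with no array above the limit.

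The other heavy chains lay lower or were uneven between arrays. Dnah6 had 4.14, 4.32 and 3.40, on both sides of the limit, and Dnah2, an inner arm chain, had 3.04, 2.97 and 4.55, above it only on replicate 3. Dnah12 had 0.07, 3.38 and 3.52, low on replicate 1, and Dnah7a had -0.26, 3.34 and -0.78, high only on replicate 2. Neither reached the limit on any array. Dnah8 and Dnah17, outer arm chains of sperm, were at 1.95 ± 1.82 and 1.68 ± 2.08, also under the limit on each array. A probe set annotated to both Dnah7b and Dnah7c, outside the members because it names several genes, read 4.77, 5.10 and 5.62. Unlike these chains, it was above the limit on each array, but it was not tested.

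Neither Dnaic gene, for the intermediate chains that anchor the outer arm motors, passed (0 of 2, against 58.3% of all genes tested). Neither had an unadjusted limma p below 0.05. Of the intermediate chain genes that are not members, Wdr78 passed at 7.03 ± 0.33 and Wdr63, at 1.36 ± 0.58, did not. Dnaic1 had 4.81, 3.96 and 4.90, with replicate 2 below the limit and the others above it (mean 0.50 above, adjusted p = 0.119, limma). With the median of its probe sets it lay 0.51 above the limit and passed (adjusted p = 0.0273, limma), and without replicate 2 it lay 0.83 above and passed (adjusted p = 0.0363, limma). Dnaic2 had 3.97, 3.97 and 4.17, at the limit itself.

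Of the radial spoke genes 3 of 6 were above background (50%), a share near the 58.3% of all genes tested. Rsph4a, a spoke head protein of cilia, had 5.42, 6.05 and 6.29 (mean 1.87 above the limit, adjusted p = 0.00144, limma). Rsph9, another spoke head protein, had 5.12, 5.42 and 5.48 (mean 1.29 above, adjusted p = 0.00111, limma). Rsph3a, of the spoke stalk, had 7.47, 7.42 and 7.15 (mean 3.29 above, adjusted p = 9.53e-05, limma). In these genes every array was clear of the limit.

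Rsph3a had a second probe set at 0.45 ± 0.80, and with the median of both it lay at -0.13 from the limit. A probe set annotated to both Rsph3a and its near-identical copy Rsph3b read 9.43, 9.62 and 9.67, so the share of the copies in the signal is uncertain. Rsph1, a spoke head gene often used as an ependymal marker, had 3.06, 3.05 and 5.65. Only replicate 3 exceeded the limit, and Rsph1 did not pass (adjusted p = 0.901, limma). Rsph6a, the spoke head paralogue of sperm, was at 4.44, 1.91 and 3.74, above the limit only on replicate 1. Rsph14 was at 3.34 ± 0.57, below it on each array.

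No tektin gene passed (0 of 5), and none of the central apparatus members, Spag6, Spag6l, Spag16 and Spag17, did (0 of 4). Neither group had a gene with an unadjusted limma p below 0.05. Of all genes tested, 58.3% passed. Tektins are filament proteins inside the microtubule doublets. Tekt1 had 3.26, -0.16 and 4.01 and Tekt2 had 2.20, 1.14 and 3.95, both highest on replicate 3 and under the limit throughout. Tekt3, at 4.11, 3.54 and 1.82, and Tekt4, at 3.82, 3.36 and 4.16, exceeded it on 1 array each. Tekt5, a sperm tektin, was the lowest of the motility genes at -0.69 ± 0.90.

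These 4 Spag genes were under the limit on every array, as were 29.9% of all genes tested. Spag17, a large scaffold protein of the apparatus, was at -0.53 ± 0.53. Spag6l and Spag6, near-identical copies that may share probes, were at 0.59 ± 0.29 and 1.54 ± 1.28. Spag16 had 3.56, 0.80 and 2.60 on the brightest of 4 probe sets, and none of the 4 passed.

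Of the motility genes added by name 2 of 4 were above background (50%), also near the share of all genes tested (58.3%). Dynlrb2, a roadblock-type dynein light chain abundant in ciliated tissues, had 8.25, 8.26 and 8.38 (mean 4.24 above the limit, adjusted p = 4.34e-05, limma). Ccdc153, a coiled-coil protein found in ependymal cells, had 6.15, 6.21 and 6.28 (mean 2.16 above, adjusted p = 0.000171, limma). Ak7, an adenylate kinase of motile cilia, had 1.66, 1.17 and 1.58, and Tmem212, a membrane protein gene of ependymal cells, had 1.79, 0.87 and 1.25. Dynlrb2 and Ccdc153 each varied by 0.13 between arrays, and Ak7 and Tmem212 lay below the limit on every array.

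**Figure D2:**
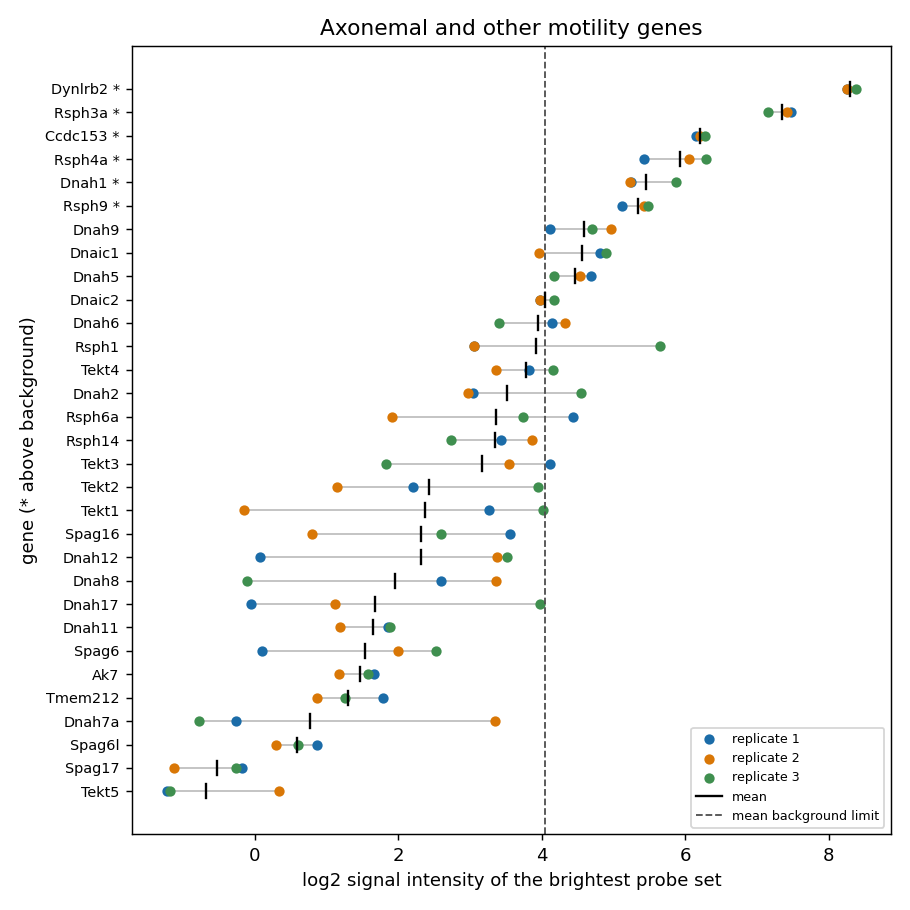
Log2 signal intensity of each of the 31 motility genes on the 3 arrays (points), with the mean (black tick), the range (grey line) and the mean background limit of 4.05 (dashed). The 6 genes marked with an asterisk passed the test, and 11 of the other 25 spread over 2 log2 units or more.

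The 6 motility genes above background had a median SD of 0.18 between arrays, and the 25 that were not had one of 0.89. Over all genes tested these medians were 0.24 and 0.83. The test itself favours genes with a small spread, so this difference is partly built in. Some members that did not pass were also tight, such as Dnaic2 with an SD of 0.12. Of these 25, 11 ranged over 2 log2 units or more between arrays (44%), a share near the 39.6% of all genes that were not above background. Such low values have little order. Among the 6 that passed, 3 were highest on replicate 1, 1 on replicate 2 and 2 on replicate 3, after each array was centred on the median deviation of all genes above background.

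Ift genes were uniformly detected. Of 14, all passed (against 58.3% of all genes tested), with means from 6.02 to 9.70 and SDs from 0.09 to 0.57. The 8 farthest above the limit included 6 of the IFT-B complex, which drives transport toward the tip. Ift22, a small GTPase of that complex, had 9.78, 9.73 and 9.58 on replicates 1, 2 and 3, and Ift74, which binds tubulin together with Ift81, had 9.44, 9.62 and 9.71. Ift27, a GTPase that links the particle to the BBSome, had 9.48, 9.42 and 9.75 and passed on 3 of 3 probe sets. These arrays differed by less than 0.4 log2 units in each of the 3 genes.

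Ift57 had 9.25, 9.30 and 9.42 on the brighter of 2 probe sets, the other being at 3.81 ± 0.10 and not above background. Ift46 had 8.75, 8.85 and 9.10, and Ift81 had 8.44, 8.63 and 8.99 and passed on 2 of 3 probe sets. Both were lowest on replicate 1 and highest on replicate 3, with ranges of 0.35 and 0.54. Members of the IFT-A complex, which drives the return from the tip, were also above background. Ift43 had 9.30, 9.14 and 9.14, and Ift122 had 8.18, 8.80 and 9.31, the widest range among the Ift genes. Ift140, also of IFT-A, was at 8.13 ± 0.48. Ift88, the IFT-B subunit mutated in the classic mouse model of lost cilia, had the lowest mean of the Ift genes, at 5.86, 6.07 and 6.14 (mean 1.97 above the limit, adjusted p = 0.000252, limma). The remaining Ift genes, Ift20, Ift52, Ift80 and Ift172, had means from 7.24 to 8.65.

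All 8 Bbs genes passed as well (against 58.3% of all genes tested), with means from 4.71 to 7.50. Bbs7, a BBSome subunit, had 7.30, 7.34 and 7.86 on 1 probe set, and its other probe set was at 1.48 ± 2.24. With the median of both it lay 0.46 above the limit and did not pass (adjusted p = 0.4, limma). Bbs4, another subunit, had 7.06, 7.39 and 7.59 and passed on 4 of 4 probe sets. Bbs1, Bbs2 and Bbs9, also BBSome subunits, were at 7.23 ± 0.20, 7.07 ± 0.40 and 6.83 ± 0.17. The chaperonin-like genes Bbs10 and Bbs12, which help assemble the BBSome, were at 6.06 ± 0.36 and 6.49 ± 0.20.

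Bbs5, a lipid-binding subunit, was closest to the limit. It had 4.41, 4.87 and 4.84, all above the limit of their array (mean 0.65 above, adjusted p = 0.0133, limma). It did not pass without replicate 2 (0.59 above, adjusted p = 0.0931, limma) or without replicate 3 (0.60 above, adjusted p = 0.0508, limma). Kif3a, a motor subunit of the kinesin that moves IFT particles to the tip, was at 8.80 ± 0.30, lowest on replicate 1 at 8.45, and passed on 4 of 4 probe sets (mean 4.74 above, adjusted p = 5.32e-05, limma). After the same centring, 11 of the 22 Ift and Bbs genes were highest on replicate 3 (50%), beside 39.9% of all genes above background, and their median deviations on the 3 arrays were -0.01, -0.05 and 0.03.

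**Figure D3:**
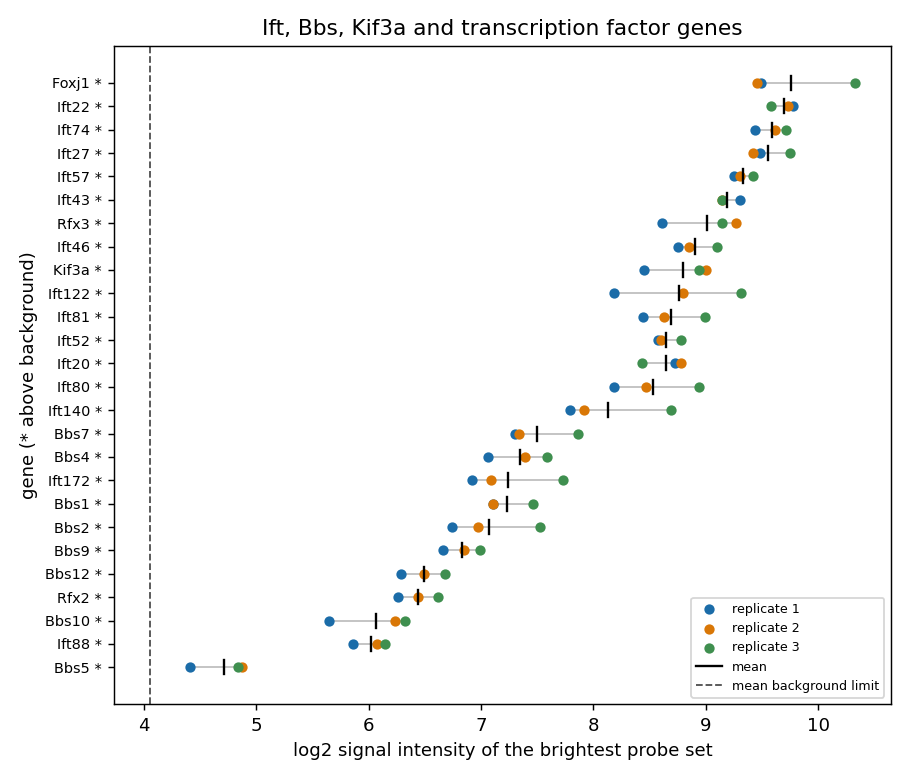
Log2 signal intensity on the 3 arrays of the Ift, Bbs, Kif3a and transcription factor genes, drawn as for the motility genes. All 26 genes carry an asterisk and all their points lie right of the mean background limit of 4.05, Bbs5 nearest to it.

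Genes of the same structures that are not members gave a further view. In a list of 67 other primary cilium genes, 61 were measured and 57 passed (93.4%, against 58.3% of all genes tested), with a median level of 7.32. Those that did not pass were Kif17, a kinesin of sensory cilia, at 3.83 ± 0.33, Tmem67, a transition zone protein, at 3.72 ± 0.24, and the ciliary receptor genes Sstr3 and Mchr1 of neurons at 2.45 ± 1.54 and 4.62 ± 0.62. IFT, BBSome and motor genes under other names passed in 19 of 20 cases, among them Wdr35 of IFT-A at 8.45 ± 0.31 and Ttc30b of IFT-B at 9.07 ± 0.10. Ttc21b, Wdr19, Traf3ip1 and Ttc30a1, the other genes first on the list to pass, were at 6.81 ± 0.25, 7.23 ± 0.24, 7.17 ± 0.26 and 6.92 ± 0.22. Transition zone genes passed in 15 of 16 cases. Of the receptors and enzymes of ciliary membrane signalling, Pkd1, Gpr161 and Adcy3 passed, at 6.93 ± 0.48, 7.90 ± 0.50 and 5.99 ± 0.08.

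Other genes of motile axonemes did not show the low share of the motility members. Of 76 on the list, 64 were measured and 36 passed (56.2%), a share near that of all genes tested, with a median level of 4.83. That nearness rested on taking the brightest probe set. With the median over all probe sets instead, 26 of the 64 passed, beside 9158 of 18116 genes tested and 5 of 31 motility genes. The ruler and nexin-dynein regulatory complex, which spaces and links the dynein arms, passed in 6 of 7 cases (against 58.3% of all genes tested). Ccdc39 and Ccdc40, the ruler proteins, were at 6.69 ± 0.91 and 6.59 ± 0.24, and Ccdc65, Drc1, Gas8 and Drc3 of the regulatory complex at 4.77 ± 0.21, 4.70 ± 0.14, 7.06 ± 0.06 and 6.20 ± 0.10. Ccdc39 passed on 1 of its 3 probe sets, and Gas8 and Drc3 each passed on 2 of 2. Iqca, of the same complex, was at 3.90 ± 0.41 and did not pass. Of the outer arm docking genes, Odad1 and Odad2 were at 0.21 ± 0.19 and 3.46 ± 0.14 and did not pass, while Ccdc151 and Ttc25 did.

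Dynein light chain genes and intermediate chain genes under other names passed in 4 of 5 cases, with Dnal1, Dnal4 and Dnali1 at 8.92 ± 0.18, 7.14 ± 0.12 and 7.24 ± 0.25. Dynein arm assembly factors passed in 5 of 10 cases and central apparatus genes outside the members in 5 of 9, both near the 58.3% of all genes tested. The central apparatus genes that passed were Spef1, Cfap69, Cfap54, Stk36 and Ulk4, at 6.16 ± 0.22, 5.67 ± 0.48, 4.54 ± 0.30, 6.67 ± 0.42 and 5.70 ± 0.32. Cfap54 lay 0.49 above the limit (adjusted p = 0.0421, limma), and 0 of its 2 probe sets passed when tested alone. Spef1 and Stk36 passed on 1 of 2 probe sets, Cfap69 on 1 of 3 and Ulk4 on 2 of 2. Hydin, a giant protein of the same apparatus, was at 3.49 ± 0.42 and did not pass. Neither did Cfap45 and Cfap53, proteins inside the microtubule doublets, at 3.77 ± 0.06 and 0.91 ± 0.28. Several axonemal genes that passed lay far above the limit, such as Enkur, a microtubule inner protein, at 8.84 ± 0.16. The split of these lists into complexes was chosen after the values were seen. So were Pkd1, Gpr161, Adcy3, Ccdc151, Ttc25, Wdr78, Wdr63, Enkur and the light chain and central apparatus genes named as passing.

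Of 14 genes listed for the making of many centrioles and cilia in a cell, 12 were measured and 5 passed (41.7%, against 58.3% of all genes). The list is broad, and not all of its genes are particular to this process. Ccno, a cyclin-like factor of centriole amplification, was at 4.82 ± 0.23 and passed. So did E2f4 and E2f5, partners of the multiciliation programme that also act in the cell cycle, at 5.55 ± 0.17 and 8.77 ± 0.29, and Rfx1 and Rfx4 at 6.85 ± 0.63 and 9.97 ± 0.37. Myb, Trp73 and Deup1, of the same programme, were at 1.70 ± 1.75, 3.60 ± 0.12 and 0.79 ± 1.14 and did not pass. Cep152, Plk4 and Foxn4 were at 2.55 ± 2.56, 4.78 ± 0.69 and 1.67 ± 1.71 and did not pass either.

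Markers of other ciliated cells were measured beside these genes, to be read against the 58.3% of all genes tested that passed. All 8 ependymal markers outside the cilium lists passed, with means from 4.85 (Rarres2) to 11.51 (Cd24a, also a precursor marker). Rarres2 passed on 1 of its 3 probe sets. Of the members described above as ependymal, Ccdc153 passed, while Rsph1 and Tmem212 did not. Of 6 choroid plexus markers measured 2 passed, Folr1 at 9.91 ± 0.06 and Kcnj13 at 4.81 ± 0.36, and the defining marker Ttr was at 2.70 ± 0.94. Clic6, Kl and Aqp1 were at 4.25 ± 0.31, 0.78 ± 1.89 and 2.20 ± 1.79 and did not pass. None of 8 sperm and late germ cell markers passed (0 also at an unadjusted limma p below 0.05), with means from 0.17 to 3.40. The part of ependymal cells in the motility genes that passed was not tested.

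**Figure D4:**
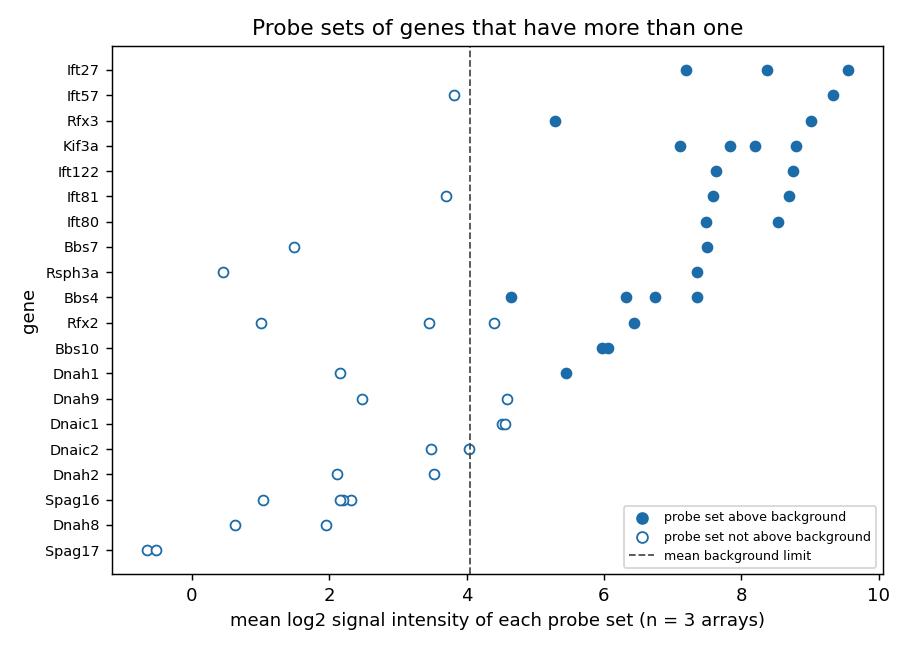
Mean log2 signal intensity of every probe set of the member genes that have more than 1, filled where the probe set was above background when tested alone and open where it was not, with the mean background limit of 4.05 dashed. Dnah1, Rsph3a, Rfx2, Bbs7, Ift57 and Ift81 each have filled and open points on opposite sides of the limit. All points of Kif3a and Bbs4 are filled.

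Promoters of the members were searched for RFX and forkhead motifs. RFX factors bind an inverted repeat, the X-box, in many ciliary genes. RefSeq promoter windows (GRCm38.p6, 250 bases before to 50 after the start) were found for 51 of the 57 members. Foxj1, Ift122, Ift80, Ift81, Rsph1 and Rsph4a had none. The RFX core GTTGCC, on either strand, was in the windows of 8 of 19 Ift and Bbs genes (42.1%) and 10 of 29 motility genes (34.5%). It was in those of 14.7% of the 14389 genes tested that had a window. Among the motility genes it was in 2 of 5 above background and in 8 of 24 that were not, so a match went with either call. Longer matches to the X-box consensus, which can overlap the core, were in 4 of 29 motility genes and 1 of 19 Ift and Bbs genes, against 2.27% of genes tested. A forkhead core, TGTTTGT on either strand, was in none of the windows of members and in those of 6.16% of genes tested. Matches are descriptions of these letters and not evidence of binding.

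Stretches with such matches are shown to set genes of either call side by side, with 1 match of each in capitals. The stretches of Spag16 and Tekt1 also hold the core on the other strand, left in lower case. The first 3 hold the core in genes above background (Ccdc153 and Dynlrb2 of the motility genes, and Ift57), at chr9:44240505-44240550, chr8:116504944-116504989 and chr16:49699214-49699259, all on the plus strand.
Ccdc153: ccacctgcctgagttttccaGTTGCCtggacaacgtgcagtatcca
Dynlrb2: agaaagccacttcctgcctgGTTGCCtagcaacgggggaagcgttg
Ift57: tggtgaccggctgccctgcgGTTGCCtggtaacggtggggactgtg
The next is from Spag16, which was not above background, at chr1:69826847-69826892 on the plus strand.
Spag16: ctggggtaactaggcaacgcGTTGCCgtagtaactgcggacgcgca
The last 4 hold an X-box consensus match, in Bbs12 and Rsph9, which were above background, and in Tekt1 and Spag17, which were not. They lie at chr3:37312409-37312482 (plus strand), chr17:46144163-46144236 (minus strand), chr11:72361854-72361927 (minus strand) and chr3:99885293-99885366 (plus strand).
Bbs12: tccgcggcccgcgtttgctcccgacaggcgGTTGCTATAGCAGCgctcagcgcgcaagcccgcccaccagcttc
Rsph9: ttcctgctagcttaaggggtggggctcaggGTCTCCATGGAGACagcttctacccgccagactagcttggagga
Tekt1: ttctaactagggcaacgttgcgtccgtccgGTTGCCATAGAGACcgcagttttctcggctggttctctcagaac
Spag17: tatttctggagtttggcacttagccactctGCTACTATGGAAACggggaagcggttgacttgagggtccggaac
The matches began 152, 51, 60 and 103 bases before the start in Ccdc153, Dynlrb2, Ift57 and Spag16. In Bbs12, Rsph9, Tekt1 and Spag17 they began 115, 6, 15 and 94 bases before it.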

How the data were processed

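Total RNA of 3 samples was hybridised to 1-colour arrays. GCOS 1.4 is the software named, per the submitters' processing notes. The deposited table holds 1 linear intensity per probe set (45101) and array. How GCOS was set, and to what target it scaled, is not given in the sources used here. Of the probe sets, 34958 were annotated to 1 gene and used, and 932 with several genes were left out. Log2 was taken with no pseudocount. A gene took its probe set with the highest mean, and 78 olfactory, vomeronasal, trace-amine and taste receptor genes set each array's limit. Log2 signal minus the limit was tested with limma 3.58.1 (R 4.3.3, lmFit, eBayes, one-sided, Benjamini-Hochberg), a procedure tested on simulated data.

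Named genes followed a rule: the members added by name, motility members that passed or had a mean over the limit, the 3 lowest, any that ranged over 2 log2 units or more, the 8 Ift or Bbs genes farthest above the limit, members whose call changed with the probe set rule, and, of each list of other cilium genes, the first 6 that passed and up to 6 that did not. Cell type marker lists are given mainly by counts. Other genes were named after their values were seen. The members and lists were chosen with earlier results of these data known.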

Additional observations from a re-analysis of the deposited data

How the results depend on the processing

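The counts above background for motility, Ift and Bbs, the other cilium lists and all genes stayed within 1.5 times their value under each alternative tried. The 31 motility genes gave 5 to 8 and Ift and Bbs genes 21 or 22. The 64 other motile axoneme genes gave 26 to 38, lowest with the median over all probe sets. Over 10 alternative fits, 49 of 57 members kept their call. The exceptions were Bbs5, Bbs7, Dnah1, Dnah5, Dnah9, Dnaic1, Rfx2 and Rsph3a. With the median over all probe sets in place of the brightest, Dnah1 (-0.22) and Rsph3a (-0.13) lay below the limit, since their second probe sets do. Dnah5 passed with the limit at the 90th percentile and without replicate 3 (adjusted p = 0.0204 and 0.0433, limma). Dnah9 passed with the limit at the 90th percentile, with a pseudocount of 16, with quantile normalization and without replicate 1 (adjusted p from 0.016 to 0.049, limma). With the median over all probe sets, Dnah9 lay below the limit (-0.50). Bbs5 did not pass with the limit at the 99th percentile (adjusted p = 0.204, limma). With the families alone, 4 of 27 motility genes passed. Testing every probe set alone, an alternative chosen after seeing the data, gave 6 motility and 22 Ift and Bbs genes. No paired analysis was possible because the samples form 1 group. Probe-level values and detection calls were not used here, so genes near the limit are uncertain.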
